A study of Canis lupus familiaris with 29 samples.

Results

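Interferon response and antigen presentation genes were followed across every culture and treatment in MDCK cells, an established epithelial line from dog kidney tubule. The set was a list of 46 genes of the interferon response and of antigen presentation, taken by gene symbol and not by measured values. Of these, 41 had at least 1 probe set annotated to that gene alone (90 probe sets), and 31 had a probe set at log2 5 or more on at least 3 of 29 arrays (54 probe sets), which made them testable. Each gene is described by its testable probe set with the highest mean over the 29 arrays. ISG20 is described apart from the other 30 genes.

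The 29 Affymetrix canine arrays measured 42924 probe sets besides controls, of which 16571 were tested. Cells were grown in collagen (3D) or on transwell filters (2D). In 3D there were 3 arrays of HGF with PD-98059, 3 of HGF with U0126, 4 of HGF alone and 4 of untreated controls. In 2D there were 4 arrays of HGF with PD-98059, 3 of HGF with U0126, 4 of HGF alone and 4 of untreated controls. HGF, hepatocyte growth factor, is the ligand of the receptor kinase MET and makes epithelial cells scatter and branch. PD-98059 (a flavone) and U0126 (a butadiene derivative) both block MEK, the kinase that activates ERK. All groups came from 1 cell line. The labels give neither doses nor treatment times, and they do not say whether arrays of a group came from separate cultures, so p-values measure the spread between these arrays only.

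Interferons bind receptors on the cell surface and, through the kinases JAK1, JAK2 and TYK2, activate STAT and IRF transcription factors. These switch on antiviral effector genes and the machinery that loads peptides onto MHC molecules for display to T cells. Epithelial cells express many of these genes without infection, and their baseline level differs between tissues and culture conditions.

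Levels are given as log2 values per probe set. A difference is that of 2 group means on the log2 scale, printed with its limma standard error after ±, and a gene rose or fell where the Benjamini-Hochberg adjusted p over all 16571 tested probe sets was below 0.05. A mean level under log2 5 is called dim, and the size of a difference that involves a dim level is uncertain because it rests on background signal. Levels of different genes are not compared with each other, since each probe set has its own brightness. Counts of genes are set beside the share of all tested probe sets that changed in the same direction. These counts describe the testable genes and not all 46, and 24 of the 31 were at log2 5 or more on every array.

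Most epithelial markers were bright. KRT8, KRT18, KRT7, EPCAM, CDH16, OCLN and TJP1 were above log2 5 on all 29 arrays, while the probe sets of CDH1 and PAX8 were dim throughout, with highest values of 3.84 and 3.58. Markers of fibroblasts, immune cells and endothelial cells, 11 genes in all, were below log2 5 on every array. Correlation between arrays of 1 group was 0.987 or more except among the 3D HGF arrays, where it went as low as 0.964. Without replicates 1 and 4 of 3D HGF, the counts below for HGF against control and for each inhibitor against HGF in 3D were unchanged. The genes called were not all the same, since the fall of OAS2 with HGF was lost (-0.16, limma adjusted p = 0.303). An RNA-quality index (the mean excess of 3′ over 5′ or middle control probe sets, in log2 units) averaged 1.68 ± 0.583 in 3D HGF, 1.93 ± 0.238 in 3D control, 0.838 ± 0.0476 in 2D HGF and 1.44 ± 0.100 in 2D control (SD, n = 4 each). In the inhibitor groups it averaged between 1.31 and 1.65. The index therefore moved with HGF in 2D. In 3D HGF it fell over replicates 1 to 4, at 2.46, 1.73, 1.42 and 1.09. Its part in the results of both cultures was examined only by fitting it as a covariate.

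ISG20, an exonuclease that degrades viral RNA, was above the dim limit in 1 group of 8. It was at 9.08, 8.70, 8.64 and 8.80 on the 2D HGF arrays, against 1.66, 1.64, 1.67 and 1.64 on the 2D control arrays. The 2D HGF arrays lay far above every other array, all of which were dim. In 2D with HGF and PD-98059 it was at 1.64, 1.60, 1.66 and 1.63, and in 2D with HGF and U0126 at 1.63, 1.64 and 1.66. Both groups therefore overlapped the 2D control arrays, and the differences from HGF alone were -7.17 ± 0.10 and -7.16 ± 0.11 (limma adjusted p = 1.74e-26 and 1.22e-25). In 3D it stayed dim with the inhibitors too, at 1.71, 1.70 and 1.71 with HGF and PD-98059 and at 1.72, 1.68 and 1.69 with HGF and U0126. It was at 1.75, 1.75, 1.70 and 1.68 with HGF alone in 3D, against 1.97, 1.72, 1.72 and 1.85 in control, all dim and overlapping, with a difference of -0.09 ± 0.10 (limma adjusted p = 0.441). ISG20 was testable through the 2D HGF arrays alone, and so had to differ there.

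The probe sets whose 8 group means most resembled those of ISG20 were those of DDX60, INKA1, FAM71F2, CERK and TFDP2, with Pearson's r between 0.9992 and 0.9998 over 8 groups. DDX60, an interferon-induced helicase, averaged 5.40 in 2D HGF and 2.50 or less in each of the other 7 groups. The other 4 genes were likewise dim outside 2D HGF, and any probe set bright in that group alone has an r near 1.

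**Figure D1:**
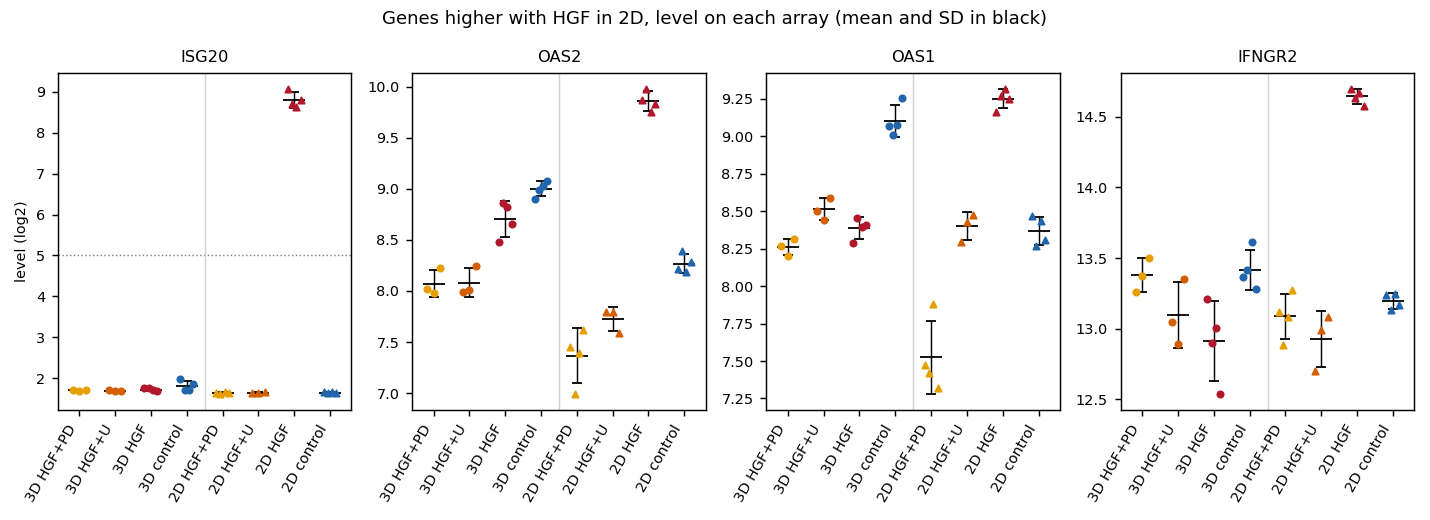
Level (log2) of ISG20, OAS2, OAS1 and IFNGR2 on each of the 29 arrays, by group, with the group mean and SD in black and the dim limit dotted where it is in range (PD stands for PD-98059, U for U0126). ISG20 is near 9 on the 4 arrays of 2D HGF and between 1.60 and 1.97 on every other array, and the other 3 genes are also highest in 2D HGF.

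Whether HGF altered the remaining genes was asked in each culture. In 3D, HGF lowered 22 of the 30 genes and raised 1 (IFIT5), while 32.6% of all tested probe sets fell and 29.4% rose. The median difference of the 30 genes was -1.03, against -0.0025 over all tested probe sets, and 15 of them fell at least 2-fold, as did 14.1% of all tested probe sets. In 2D, HGF lowered 14 of the 30 genes and raised 6, while 29.2% of all tested probe sets fell and 26.3% rose, and the median difference was -0.38. A lower level in a pool of cells can come from fewer expressing cells or from less RNA per cell, which cannot be told apart here. With the RNA-quality index as a covariate, HGF lowered 24 and raised 1 in 3D, and lowered 15 and raised 7 in 2D.

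The difference between the HGF effects in 3D and 2D was tested directly. It was negative for 24 of the 30 genes and positive for IFIT5, against 26.3% negative and 22.0% positive over all tested probe sets. The median of this difference was -1.30 over the 30 genes. Its range ran from -3.82 ± 0.18 for IFI44L to 2.17 ± 0.44 for IFIT5. STAT2, STAT3, EIF2AK2, TAPBP and B2M did not pass. For B2M the mean over both of its probe sets did pass, at -0.78 (adjusted p = 2.39e-05).

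**Figure D2:**
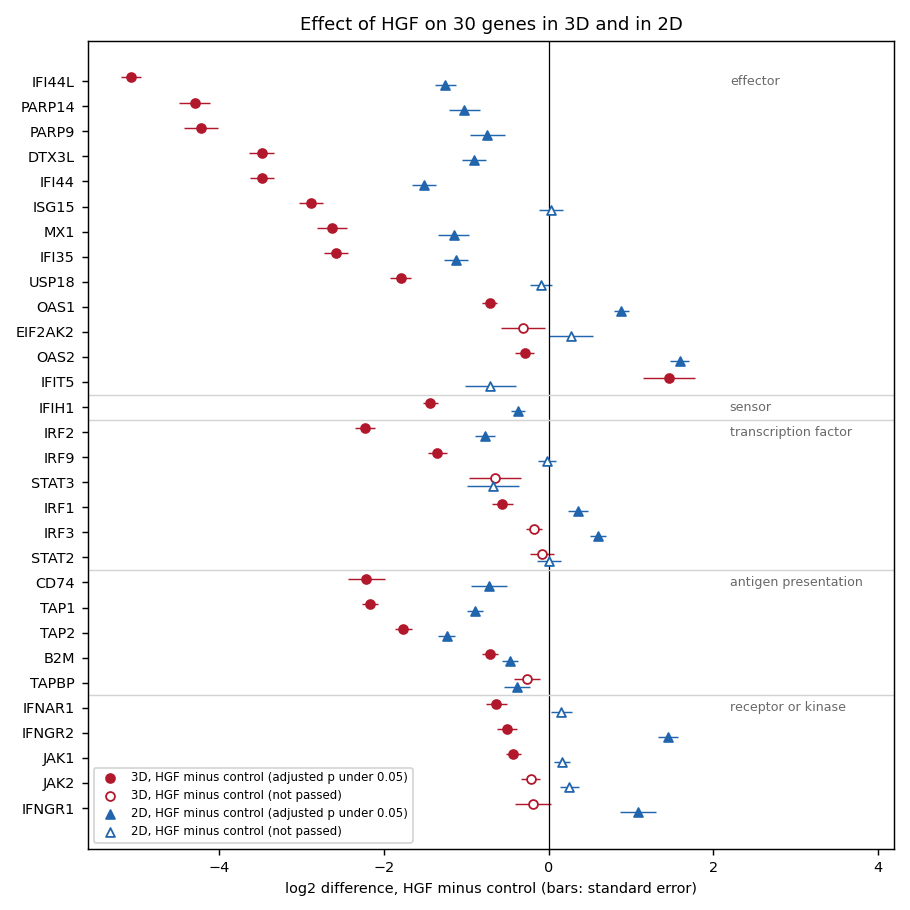
Log2 difference between HGF and control in 3D (red circles) and in 2D (blue triangles) for 30 genes, grouped by role, with the standard error as bars and filled symbols where adjusted p is below 0.05. Most red circles lie left of 0, down to -5.08 for IFI44L, and most blue triangles lie closer to 0 or right of it.

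Among the 13 effector genes, 11 fell with HGF in 3D, IFIT5 rose and EIF2AK2 did not pass, and the median difference was -2.63. IFI44L, an interferon-induced protein, had the most negative difference. It was at 4.43, 4.87, 4.67 and 4.86 on the 3D HGF arrays, against 9.80, 9.72, 9.95 and 9.65 on the 3D control arrays. The groups did not overlap, and every 3D HGF array was dim. The difference was -5.08 ± 0.13 (limma adjusted p = 4.89e-21). In 2D IFI44L was at 7.70, 7.80, 7.49 and 7.58 with HGF, against 8.82, 9.02, 8.94 and 8.80 in control, again without overlap and above the dim limit, a difference of -1.25 ± 0.13 (adjusted p = 3.48e-09). A second, dimmer probe set of IFI44L also fell, by 3.64 in 3D and by 2.15 in 2D.

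IFI44, which lies next to IFI44L in the RefSeq gene order (assembly UU_Cfam_GSD_1.0, used for gene order only), was at 4.35, 4.10, 4.17 and 4.10 on the 3D HGF arrays, against 7.67, 7.80, 7.44 and 7.73 on the 3D control arrays. It was dim on every 3D HGF array, and the difference was -3.48 ± 0.15 (adjusted p = 1.64e-16). In 2D it was at 7.16, 7.27, 7.32 and 7.03 with HGF, against 9.01, 8.60, 8.58 and 8.63 in control. This fall, -1.51 ± 0.15 (adjusted p = 2.21e-09), was the most negative of the 30 genes in 2D by the probe sets used here. Other probe sets of IFI44L (-2.15) and TAP2 (-2.40) fell further.

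PARP9, DTX3L and PARP14 also lie close together, with no protein-coding gene between PARP9 and DTX3L and 1 between DTX3L and PARP14. PARP9 and the ubiquitin ligase DTX3L form a complex, and PARP14 is an ADP-ribosyltransferase. PARP9 was at 3.47, 3.79, 2.91 and 4.17 on the 3D HGF arrays, against 7.74, 7.71, 7.75 and 8.04 on the 3D control arrays. PARP14 was at 3.31, 2.94, 3.94 and 2.89 on the 3D HGF arrays, against 7.48, 7.60, 7.71 and 7.50 on the 3D control arrays. DTX3L was at 5.91, 5.87, 6.31 and 6.73 on the 3D HGF arrays, against 9.61, 9.70, 9.62 and 9.84 on the 3D control arrays. All 3 genes separated the groups completely, and with HGF PARP9 and PARP14 were dim while DTX3L was not. The differences were -4.22 ± 0.21 for PARP9, -4.30 ± 0.19 for PARP14 and -3.49 ± 0.15 for DTX3L (adjusted p = 4.22e-15, 4.57e-16 and 1.97e-16).

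In 2D the same 3 genes fell by much less. PARP9 was at 6.92, 7.36, 6.79 and 7.05 with HGF, against 7.79, 7.65, 8.03 and 7.63 in control (-0.74 ± 0.21, adjusted p = 0.00402). PARP14 was at 5.65, 5.73, 6.13 and 5.65 with HGF, against 6.95, 6.60, 6.80 and 6.91 in control (-1.02 ± 0.19, adjusted p = 5.91e-05). DTX3L was at 8.79, 9.14, 9.19 and 8.77 with HGF, against 9.83, 9.76, 10.04 and 9.90 in control (-0.91 ± 0.15, adjusted p = 1.04e-05). None of the 3 pairs of groups overlapped. The HGF effect in 3D minus that in 2D was -3.48 ± 0.30 for PARP9, -3.28 ± 0.27 for PARP14 and -2.58 ± 0.21 for DTX3L.

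ISG15, a ubiquitin-like modifier, and USP18, the protease that removes it from proteins, fell with HGF in 3D and did not pass in 2D. ISG15 was at 7.84, 8.46, 8.44 and 8.44 on the 3D HGF arrays, against 11.09, 11.18, 11.11 and 11.35 on the 3D control arrays (-2.89 ± 0.15, adjusted p = 6.12e-15). In 2D it was at 9.43, 9.55, 9.52 and 9.43 with HGF, against 9.41, 9.27, 9.82 and 9.30 in control, where the arrays overlapped (0.03 ± 0.15, adjusted p = 0.877). USP18 was at 5.78, 6.32, 5.85 and 6.03 on the 3D HGF arrays, against 7.70, 7.78, 7.73 and 7.97 on the 3D control arrays (-1.80 ± 0.13, adjusted p = 8.81e-12). Its 2D levels overlapped too, at 8.09, 8.45, 8.01 and 8.12 with HGF, against 8.53, 8.09, 8.20 and 8.23 in control (-0.10 ± 0.13, adjusted p = 0.576). The difference between the HGF effects was -2.92 ± 0.21 for ISG15 and -1.70 ± 0.19 for USP18 (adjusted p = 2.33e-11 and 4.44e-08).

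MX1, a dynamin-like GTPase that blocks viral replication, was at 6.34, 6.42, 5.17 and 5.45 on the 3D HGF arrays, against 8.41, 8.47, 8.54 and 8.47 on the 3D control arrays. The 3D HGF arrays split into a higher and a lower pair, and both pairs lay below every control array (-2.63 ± 0.18, adjusted p = 2.85e-12). In 2D MX1 was at 7.49, 7.40, 7.34 and 7.68 with HGF, against 8.53, 8.73, 8.70 and 8.57 in control (-1.16 ± 0.18, adjusted p = 6.01e-06). IFI35, another interferon-induced protein, was at 10.22, 10.43, 10.75 and 9.50 on the 3D HGF arrays, against 12.84, 12.94, 12.75 and 12.69 on the 3D control arrays (-2.58 ± 0.14, adjusted p = 4.01e-14). In 2D IFI35 was at 11.17, 11.24, 11.23 and 11.14 with HGF, against 12.29, 12.32, 12.27 and 12.40 in control (-1.13 ± 0.14, adjusted p = 2.58e-07). Neither gene's groups overlapped in either culture. Another tested probe set of IFI35 passed in neither culture (-0.12 in 3D and -0.10 in 2D), while its remaining tested probe sets fell in both.

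OAS1 and OAS2, enzymes that sense double-stranded RNA and make the messenger that activates RNase L, rose with HGF in 2D. OAS2 was at 9.87, 9.98, 9.75 and 9.83 on the 2D HGF arrays, against 8.21, 8.39, 8.18 and 8.28 on the 2D control arrays. Every HGF array was above every control array, and the rise was 1.59 ± 0.11 (adjusted p = 3.65e-12). In 3D OAS2 was at 8.48, 8.86, 8.82 and 8.66 with HGF, against 8.90, 8.98, 9.03 and 9.07 in control. That small fall, -0.29 ± 0.11 (adjusted p = 0.024), no longer passed after quantile normalization (adjusted p = 0.064), median centring (-0.19) or array weights (adjusted p = 0.0782). It was also lost without replicate 1 (adjusted p = 0.0966) or 4 (adjusted p = 0.0502) of 3D HGF, or without replicate 3 (adjusted p = 0.0504) or 4 (adjusted p = 0.0612) of 3D control. OAS1 was at 9.16, 9.27, 9.32 and 9.25 on the 2D HGF arrays, against 8.47, 8.27, 8.43 and 8.31 on the 2D control arrays, a rise of 0.88 ± 0.09 (adjusted p = 1.05e-08). In 3D OAS1 fell, by 0.72 on the log2 scale (SE 0.09, adjusted p = 2.85e-07), and the difference between its HGF effects was -1.60 ± 0.13.

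IFIT5, which binds viral RNA, was the exception in 3D. It was at 7.22, 7.75, 8.54 and 8.78 on the 3D HGF arrays, against 6.47, 6.92, 6.38 and 6.68 on the 3D control arrays. The groups did not overlap, although the HGF arrays spread over more than 1 log2 unit, and the rise was 1.46 ± 0.31 (adjusted p = 0.00023). Over replicates 1 to 4 of 3D HGF its level rose as the RNA-quality index fell, and a link between them was not tested. In 2D IFIT5 had a difference of -0.71 ± 0.31 that did not pass (adjusted p = 0.0573), and it did pass with the RNA-quality covariate, at -1.39. EIF2AK2, the kinase PKR that stops translation upon binding double-stranded RNA, was near the dim limit, at 4.43 ± 0.30 in 3D HGF and 4.74 ± 0.32 in 3D control (SD, n = 4 each). With HGF it differed by -0.31 in 3D and by 0.27 in 2D and passed in neither culture (adjusted p = 0.32 and 0.42).

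**Figure D3:**
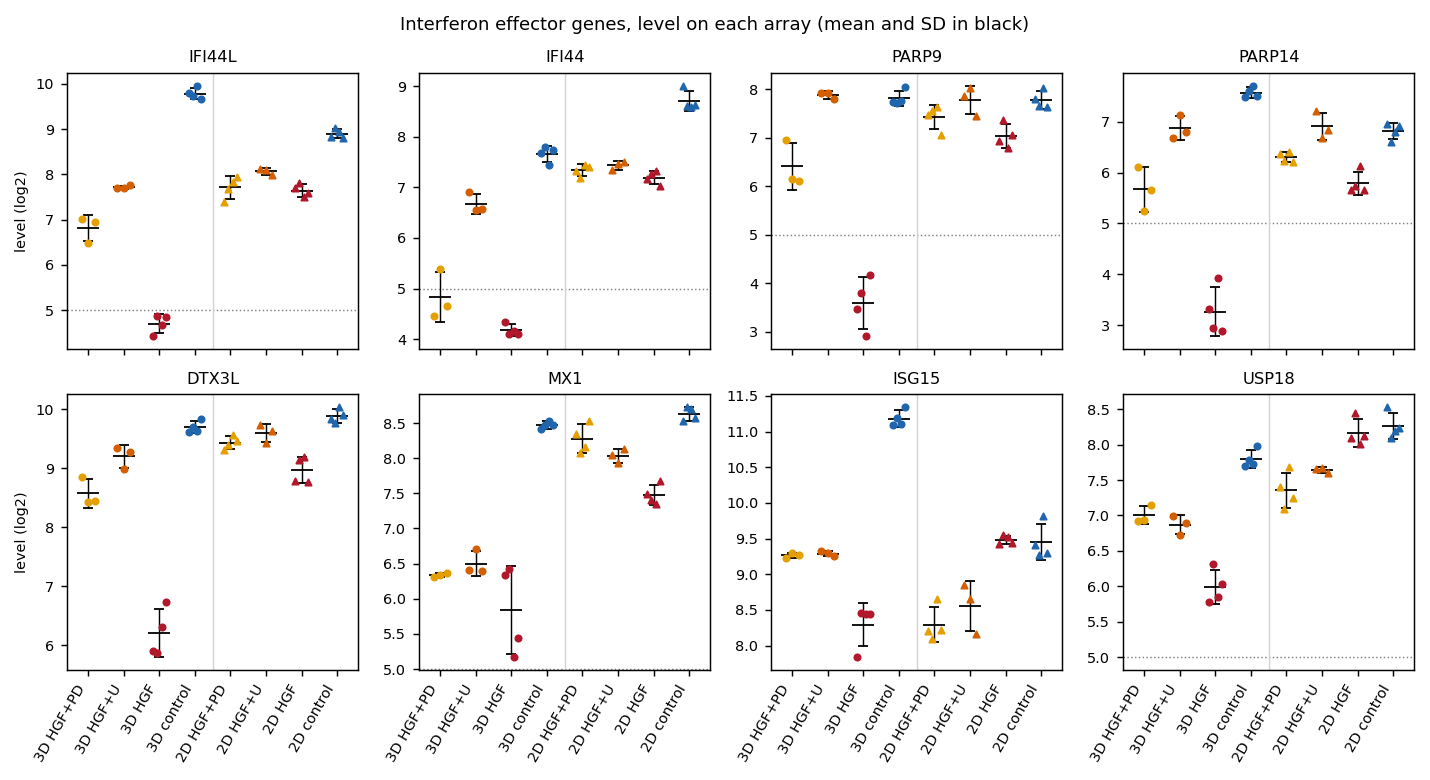
Level (log2) of 8 effector genes on each of the 29 arrays, by group (3D circles, 2D triangles), with the group mean and SD in black and the dim limit dotted where it is in range. The 3D HGF arrays lie below every 3D control array in all 8 genes, and IFI44L, IFI44, PARP9 and PARP14 are dim there.

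IFIH1, the cytosolic sensor MDA5 that detects viral RNA, was the 1 testable sensor. It averaged 8.20 ± 0.08 in 3D HGF and 9.64 ± 0.07 in 3D control (SD, n = 4 each), a fall of -1.44 ± 0.09 (adjusted p = 1.75e-13). In 2D it averaged 8.67 ± 0.18 with HGF and 9.04 ± 0.11 in control (SD, n = 4 each), a smaller fall of -0.37 ± 0.09 (adjusted p = 0.000716).

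Of the 6 transcription factors, IRF2, IRF9 and IRF1 fell with HGF in 3D. IRF2, which binds the same DNA elements as IRF1, was at 7.09, 7.04, 7.08 and 6.45 on the 3D HGF arrays, against 9.17, 9.08, 9.16 and 9.16 on the 3D control arrays. The groups were well separated, with a fall of -2.23 ± 0.13 (adjusted p = 4.84e-14). In 2D IRF2 was at 8.73, 8.47, 8.57 and 8.53 with HGF, against 9.36, 9.28, 9.22 and 9.54 in control, a fall of -0.77 ± 0.13 (adjusted p = 9.25e-06). IRF9, a DNA-binding partner of STAT2, averaged 7.85 ± 0.20 in 3D HGF and 9.20 ± 0.07 in 3D control (SD, n = 4 each), a fall of -1.35 ± 0.11 (adjusted p = 7.01e-11). In 2D IRF9 differed by -0.02 ± 0.11 (adjusted p = 0.904).

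IRF1 and IRF3 rose with HGF in 2D. IRF3, which is activated by virus sensors, averaged 13.52 ± 0.05 in 2D HGF and 12.93 ± 0.12 in 2D control (SD, n = 4 each), a rise of 0.60 ± 0.10 (adjusted p = 9.45e-06), with no call in 3D (-0.18 ± 0.10, adjusted p = 0.115), where the mean of its probe sets fell (-0.31). IRF1 fell in 3D (-0.57 ± 0.13, adjusted p = 0.000389) and rose in 2D (0.36 ± 0.13, adjusted p = 0.0196). The 2D call was lost without replicate 1 (adjusted p = 0.0633) or replicate 2 (adjusted p = 0.0597) of 2D HGF. STAT2, which joins IRF9, passed in neither culture, with a 3D difference of -0.08 ± 0.15. STAT3, which mediates cytokine signals, differed by -0.65 ± 0.32 in 3D and by -0.68 ± 0.32 in 2D and passed in neither culture. With array weights STAT3 did pass in both (-0.84, adjusted p = 0.0214 in 3D and -0.70, adjusted p = 0.0282 in 2D), as it did with the replicate number as a block (adjusted p = 0.0432 and 0.0398). In 2D it also passed in the compared groups alone (adjusted p = 0.00361), so the test of STAT3 depends on the setting. It depends on the probe set too. Both other tested probe sets of STAT3 fell in 2D (-0.87 and -0.91, limma adjusted p = 0.00637 and 0.0443). Neither passed in 3D (-0.14 and -0.82).

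Of the 5 antigen presentation genes, 4 fell with HGF in 3D and all 5 fell in 2D. TAP1, a subunit of the transporter that carries peptides into the endoplasmic reticulum, was at 9.58, 9.68, 9.62 and 9.26 on the 3D HGF arrays, against 11.78, 11.82, 11.58 and 11.66 on the 3D control arrays (-2.17 ± 0.10, adjusted p = 3.82e-16). In 2D it was at 9.49, 9.56, 9.49 and 9.40 with HGF, against 10.41, 10.26, 10.35 and 10.53 in control (-0.90 ± 0.10, adjusted p = 1.15e-08). Neither pair of groups overlapped. With HGF the 3D and 2D levels of TAP1 differed by 0.05 ± 0.10 (adjusted p = 0.681). Its partner TAP2 fell by 1.76 in 3D and by 1.24 in 2D on the log2 scale (SE 0.10 each, adjusted p = 5.7e-14 and 6.7e-11). Another tested probe set of TAP2 passed in neither culture (0.24 in 3D and 0.14 in 2D), while its remaining tested probe set fell in both (-3.02 and -2.40).

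CD74, the invariant chain that guides MHC class II molecules, was at 9.86, 10.57, 10.68 and 11.21 on the 3D HGF arrays, against 12.52, 12.98, 12.71 and 12.95 on the 3D control arrays. The HGF arrays spread widely but stayed below every control array (-2.21 ± 0.22, adjusted p = 2.94e-09). Over replicates 1 to 4 of 3D HGF the level of CD74 rose as the RNA-quality index fell. The levels of IFNGR1 and TAPBP rose likewise, while those of TAP2, IRF9 and JAK2 fell along with the index. A link of these levels with the index was not tested. In 2D CD74 was at 11.72, 11.96, 11.75 and 11.79 with HGF, against 12.97, 12.20, 12.10 and 12.87 in control (-0.73 ± 0.22, adjusted p = 0.00711), and the fall was -1.25 with the RNA-quality covariate. B2M, the light chain of MHC class I, fell by 0.71 in 3D and by 0.47 in 2D on the log2 scale (SE 0.10 each, adjusted p = 6.12e-07 and 0.000223), and its second probe set fell by 2.04 in 3D (-1.37 as the mean of both). TAPBP, which holds MHC class I at the transporter, differed by -0.26 ± 0.16 in 3D (adjusted p = 0.163). Its fall in 2D (-0.39 ± 0.16, adjusted p = 0.0445) was lost without replicate 2 (adjusted p = 0.0798) or 4 (-0.25, adjusted p = 0.212) of 2D control, without any 1 array of 2D HGF, under quantile normalization (adjusted p = 0.0585), under median centring and with no filter. With the RNA-quality covariate TAPBP fell in both cultures, by 0.37 in 3D (adjusted p = 0.0364) and by 0.65 in 2D (adjusted p = 0.0041).

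**Figure D4:**
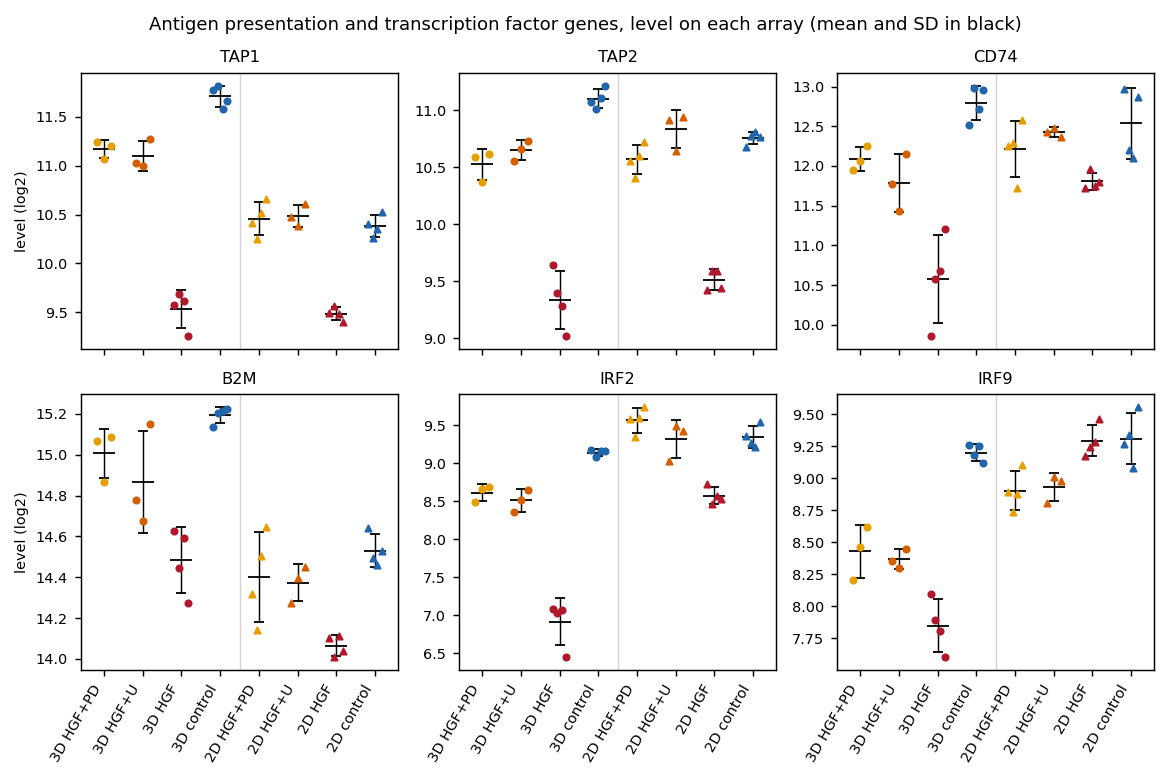
Level (log2) of TAP1, TAP2, CD74, B2M, IRF2 and IRF9 on each of the 29 arrays, by group (3D circles, 2D triangles), with the group mean and SD in black. The 3D HGF arrays lie below both 3D inhibitor groups and below 3D control for TAP1, TAP2, CD74, IRF2 and IRF9.

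Of the 5 receptor chains and kinases, 3 fell with HGF in 3D and 2 rose with it in 2D. IFNGR2, a chain of the interferon gamma receptor, was at 14.70, 14.64, 14.67 and 14.58 on the 2D HGF arrays, against 13.24, 13.13, 13.25 and 13.17 on the 2D control arrays. The groups did not overlap and the rise was 1.45 ± 0.12 (adjusted p = 5.58e-11), with 2.41 as the mean over its 4 probe sets. That mean includes a probe set at log2 5 or more on 4 arrays only, which differed by 3.91. This probe set was testable through 2D HGF and so had to differ there. In 3D IFNGR2 fell (-0.51 ± 0.12, adjusted p = 0.0005). IFNGR1, the other chain, rose in 2D (1.09 ± 0.22, adjusted p = 0.000125), by 0.47 with the RNA-quality covariate, and in 3D it differed by -0.19 ± 0.22 (adjusted p = 0.47), which with that covariate was a fall (-0.45, adjusted p = 0.00981). IFNAR1, a chain of the type I interferon receptor, lies between IFNGR2 and IL10RB in the gene order. IFNAR1 fell in 3D (-0.63 ± 0.13, adjusted p = 0.000102), and the mean of its probe sets differed by -0.39 there (adjusted p = 0.0299). In 2D IFNAR1 differed by 0.15 ± 0.13 (adjusted p = 0.325), where the mean of its probe sets rose (0.51, adjusted p = 0.00631). That mean includes a probe set at log2 5 or more on 3 arrays only, which was highest in 2D HGF. The filter favoured a high level of this probe set there, so the rise of the mean is no separate support.

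JAK1 fell in 3D by the probe set used here (-0.43 ± 0.09, adjusted p = 0.000273). A second probe set of JAK1 rose in 3D (1.37, adjusted p = 0.0339) and the mean of all its tested probe sets was 0.13 and did not pass, so its direction in 3D is uncertain. JAK2 passed in neither culture (-0.22 ± 0.11 in 3D and 0.25 ± 0.11 in 2D, adjusted p = 0.102 and 0.065). It fell in 3D as the mean of its probe sets (-0.28) and rose in 2D with the RNA-quality covariate (0.51). All 5 receptor and kinase genes passed the test of the difference between the HGF effects, with values from -1.96 ± 0.16 for IFNGR2 to -0.47 ± 0.16 for JAK2. The JAK2 call was lost without replicate 4 of 3D HGF (-0.35, adjusted p = 0.0511), and for JAK1 the difference changed sign to 0.33 as the mean of its probe sets.

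The culture itself was compared with and without HGF. In control cells 13 of the 30 genes were higher in 3D than in 2D and 6 were lower, while 23.6% of all tested probe sets were higher and 28.7% lower. ISG15 averaged 11.18 ± 0.12 in 3D control and 9.45 ± 0.26 in 2D control (SD, n = 4 each; 1.73 ± 0.15, adjusted p = 3.48e-10). TAP1 (1.32 ± 0.10) and IFNAR1 (1.13 ± 0.13) were also higher in 3D control, whereas IFIT5 (-1.53 ± 0.31) and IFI44 (-1.04 ± 0.15) were lower. For IFNAR1 the mean of both probe sets was 0.41, and for IFIT5 the value with the RNA-quality covariate was -0.96. With HGF 2 of the 30 genes were higher in 3D than in 2D and 23 were lower, while 28.9% of all tested probe sets were higher and 35.7% lower.

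The lower genes with HGF included PARP9 (-3.45 ± 0.21), IFI44 (-3.01 ± 0.15), IFI44L (-2.94 ± 0.13), USP18 (-2.17 ± 0.13) and IFNGR2 (-1.73 ± 0.12). For IFI44L the mean of both probe sets was -1.64, since the second probe set differed by -0.33 (adjusted p = 0.332). The genes higher in 3D HGF than in 2D HGF were B2M (0.42 ± 0.10) and IFNAR1 (0.34 ± 0.13). B2M did not pass with the RNA-quality covariate (0.25, adjusted p = 0.117), and the mean of both IFNAR1 probe sets was lower in 3D HGF (-0.48). The second IFNAR1 probe set, at log2 5 or more on 3 arrays only, differed by -1.30. It was highest in 2D HGF, which the filter favoured, so the lower mean is no separate support. CD74 was lower in 3D HGF by -1.23 ± 0.22, and by -0.49 with the RNA-quality covariate, which did not pass (adjusted p = 0.0926).

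How MEK inhibition altered these genes in HGF-treated cells was asked next. These comparisons use the same HGF arrays as those of HGF against control, so their signs are not independent of it. In 3D, PD-98059 raised 17 of the 30 genes and lowered 2, while 26.6% of all tested probe sets rose and 15.4% fell. U0126 raised 17 and lowered 1, while 25.4% of all tested probe sets rose and 23.8% fell. After median centring the U0126 counts were 16 and 3. The median difference was 0.51 for PD-98059 and 0.59 for U0126, against 0.05 and -0.00053 over all tested probe sets.

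PARP9 was at 6.96, 6.16 and 6.10 in 3D with HGF and PD-98059, and at 7.91, 7.93 and 7.79 with HGF and U0126. Both sets were above every 3D HGF array, the highest of which was at 4.17, and the U0126 arrays lay within the range of 3D control (7.71 to 8.04) while the PD-98059 arrays lay below it. The differences from HGF alone were 2.82 ± 0.23 and 4.29 ± 0.23 (adjusted p = 1.65e-10 and 3e-14). PARP14 was at 6.12, 5.24 and 5.67 with PD-98059 and at 6.69, 7.14 and 6.79 with U0126 (2.40 ± 0.21 and 3.60 ± 0.21). DTX3L was at 8.85, 8.43 and 8.44 with PD-98059 and at 9.35, 8.98 and 9.27 with U0126 (2.36 ± 0.16 and 2.99 ± 0.16). For PARP14 and DTX3L both inhibitor groups lay between the HGF and control arrays.

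IFI44L was at 7.01, 6.48 and 6.94 with PD-98059 and at 7.70, 7.69 and 7.76 with U0126, all above the 3D HGF arrays and below the 3D control arrays. Its differences from HGF were 2.10 ± 0.14 and 3.01 ± 0.14, and the PD-98059 value was 1.14 as the mean of both probe sets, of which the second differed by 0.18 (adjusted p = 0.701). IFI44 was at 4.46, 5.39 and 4.65 with PD-98059 and at 6.91, 6.55 and 6.58 with U0126. The U0126 arrays were clear of the dim limit (2.50 ± 0.16, adjusted p = 1.1e-12) and 2 of 3 PD-98059 arrays were not. The PD-98059 rise in IFI44 (0.65 ± 0.16, adjusted p = 0.00163) did not pass in a fit of the compared groups alone (adjusted p = 0.0693) and was 0.38 without replicate 2 of that group.

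ISG15 was at 9.22, 9.30 and 9.28 in 3D with PD-98059 and at 9.32, 9.29 and 9.25 with U0126, above the 3D HGF arrays and far below 3D control (0.97 ± 0.16 and 0.99 ± 0.16 against HGF). USP18 was at 6.92, 6.93 and 7.15 with PD-98059 and at 6.99, 6.72 and 6.89 with U0126, likewise between the HGF and control arrays (1.01 ± 0.14 and 0.87 ± 0.14). IFI35 was at 11.77, 11.88 and 12.01 with PD-98059 and at 12.23, 12.31 and 12.23 with U0126 (1.66 ± 0.16 and 2.04 ± 0.16). MX1 stayed low in 3D with both compounds. It was at 6.30, 6.34 and 6.37 with PD-98059 and at 6.41, 6.70 and 6.40 with U0126, in part within the range of the 3D HGF arrays. Its rise with PD-98059 (0.50 ± 0.20, adjusted p = 0.0452) was lost without replicate 3 (0.27, adjusted p = 0.224) or 4 (0.36, adjusted p = 0.155) of 3D HGF, without any 1 array of the PD-98059 group and without some single arrays of other groups. It was also lost with no filter, in the compared groups alone, under quantile normalization, under median centring and with the replicate number as a block (adjusted p = 0.0585). It was kept with the RNA-quality covariate and with array weights, where it was larger (0.80, adjusted p = 0.000519). Its rise with U0126 (0.66 ± 0.20, adjusted p = 0.00704) was lost in the compared groups alone (adjusted p = 0.164) and under quantile normalization (adjusted p = 0.0759).

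OAS2 fell with both inhibitors in 3D. It was at 8.02, 7.98 and 8.22 with PD-98059 and at 7.99, 8.01 and 8.24 with U0126, below every 3D HGF and 3D control array (-0.63 ± 0.12 and -0.62 ± 0.12, adjusted p = 0.000112 and 9.71e-05). IFIT5 had differences of -0.85 ± 0.34 with PD-98059 and -0.69 ± 0.34 with U0126. The first passed by a narrow margin (adjusted p = 0.0457) and was lost without replicate 3 (-0.69, adjusted p = 0.131) or 4 (-0.61, adjusted p = 0.162) of 3D HGF and without replicate 2 or 3 of the PD-98059 group. The second did not pass (adjusted p = 0.0923), and it did pass under quantile normalization (-0.83) and with array weights (-0.82).

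IRF2 was at 8.49, 8.67 and 8.69 in 3D with PD-98059 and at 8.36, 8.52 and 8.65 with U0126, between the HGF and control arrays (1.70 ± 0.14 and 1.60 ± 0.14). IRF9 rose as well (0.58 ± 0.12 and 0.52 ± 0.12), and IFIH1 rose by 0.94 ± 0.09 and 1.15 ± 0.09. TAP1 was at 11.24, 11.07 and 11.20 with PD-98059 and at 11.02, 10.99 and 11.27 with U0126, all above the HGF arrays and below the control arrays (1.63 ± 0.10 and 1.56 ± 0.10). CD74 was at 11.95, 12.06 and 12.25 with PD-98059 and at 11.77, 11.43 and 12.16 with U0126 (1.51 ± 0.24 and 1.21 ± 0.24). TAP2 rose by 1.19 ± 0.11 and 1.31 ± 0.11, and B2M by 0.52 ± 0.11 and 0.38 ± 0.11. The TAP2 probe set that did not pass with HGF passed with neither inhibitor in 3D (-0.17 and 0.11), while its remaining probe set rose (2.38 and 2.62). As the mean of both probe sets B2M rose by 0.84 and 0.77. The rise of the probe set used here with U0126 did not pass without replicate 3 of that group (0.24, adjusted p = 0.0621) or in the compared groups alone (adjusted p = 0.0703). Of the receptor and kinase genes 1 passed, IFNGR2 with PD-98059 (0.47 ± 0.13, adjusted p = 0.00385), and that call was lost in the compared groups alone (adjusted p = 0.0646). Other IFNGR2 probe sets at log2 5 or more on every array rose with PD-98059 (0.37 and 0.67) and with U0126 (0.29 and 0.40). The IFNGR2 probe set at that level on 4 arrays only passed with neither inhibitor.

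In 2D the inhibitors moved genes in both directions. PD-98059 raised 9 of the 30 genes and lowered 14, while 27.6% of all tested probe sets rose and 24.9% fell. U0126 raised 12 and lowered 12, while 25.8% of all tested probe sets rose and 24.3% fell. Of the 5 antigen presentation genes, 3 rose with PD-98059 and 4 with U0126. The fourth was CD74 (0.62 with U0126, and 1.04 with the RNA-quality covariate), whose call was lost with no filter (adjusted p = 0.0922) and without replicate 1, 3 or 4 of 2D HGF or any 1 array of 2D HGF with U0126. TAP1 was at 10.41, 10.25, 10.51 and 10.66 with PD-98059 and at 10.47, 10.38 and 10.60 with U0126, around the level of 2D control. The rise over HGF was 0.97 ± 0.10 with PD-98059 (adjusted p = 3.03e-09), and with U0126 the mean was 10.49, against 9.49 with HGF alone (adjusted p = 8.82e-09). TAP2 rose by 1.06 ± 0.10 and 1.32 ± 0.11, IFI35 by 1.20 ± 0.14 and 1.35 ± 0.16, and IRF2 by 0.99 ± 0.13 and 0.74 ± 0.14. The TAP2 probe set that did not pass with HGF passed with neither inhibitor in 2D (0.32 and 0.17), while its remaining probe set rose (2.15 and 2.42). MX1 rose by 0.80 ± 0.18 and 0.56 ± 0.20, and with the RNA-quality covariate by 0.47 with PD-98059, while its 0.25 with U0126 did not pass (adjusted p = 0.267). The U0126 call of MX1 was also lost under quantile normalization (adjusted p = 0.0509), with no filter, without replicate 3 of 2D HGF and without replicate 1 or 3 of the U0126 group. With that covariate PD-98059 raised 10 and lowered 12 in 2D, and so did U0126.

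The 5 effector genes with the most negative HGF difference in 3D differed by 1.11 or less in 2D with an inhibitor. DTX3L rose by 0.46 ± 0.15 with PD-98059 and by 0.62 ± 0.16 with U0126 (adjusted p = 0.0112 and 0.0022). PARP9 differed by 0.40 ± 0.21 with PD-98059 (adjusted p = 0.12) and rose by 0.75 ± 0.23 with U0126 (adjusted p = 0.00785). PARP14 rose by 0.52 ± 0.19 and by 1.11 ± 0.21, and its call with PD-98059 was lost with the RNA-quality covariate (adjusted p = 0.066) and without replicate 1, 2 or 4 of 2D HGF or replicate 1 or 3 of 2D HGF with PD-98059. IFI44L differed by 0.07 ± 0.13 with PD-98059 (adjusted p = 0.691) and rose by 0.42 ± 0.14 with U0126 (0.75 as the mean of both probe sets), and IFI44 passed with neither (0.15 ± 0.15 and 0.24 ± 0.16).

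All 6 genes that HGF raised in 2D fell there with both inhibitors. These genes were picked by a call on the same 2D HGF arrays, which favours a fall in these comparisons. OAS2 was at 7.46, 6.99, 7.40 and 7.62 with PD-98059 and at 7.79, 7.79 and 7.59 with U0126, below the 2D control arrays as well as the 2D HGF arrays (-2.49 ± 0.11 and -2.13 ± 0.12, adjusted p = 5.28e-16 and 6.97e-14). OAS1 was at 7.47, 7.42, 7.88 and 7.32 with PD-98059, below every 2D control array, and at 8.30, 8.43 and 8.48 with U0126, around the level of 2D control (-1.73 ± 0.09 and -0.85 ± 0.10). IFNGR2 was at 13.12, 12.88, 13.08 and 13.27 with PD-98059 and at 12.70, 12.99 and 13.08 with U0126 (-1.56 ± 0.12 and -1.72 ± 0.13), and the PD-98059 value was -2.38 as the mean of its probe sets. That mean again includes the probe set testable through 2D HGF, which differed by -3.8. IRF3 fell by 0.73 and by 0.99 on the log2 scale (SE 0.10 each), and IRF1 by 0.47 and by 0.37 on the log2 scale. The U0126 call of IRF1 was lost without replicate 1 (adjusted p = 0.0729), 2 (adjusted p = 0.0703) or 3 (adjusted p = 0.0551) of 2D HGF and without any 1 array of the U0126 group. IFNGR1 differed by -0.72 ± 0.22 and -0.97 ± 0.23, and with the RNA-quality covariate by -0.19 (adjusted p = 0.372) and -0.49.

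ISG15, USP18 and IRF9, which did not pass for HGF against control in 2D, fell there with both inhibitors. ISG15 was at 8.20, 8.09, 8.66 and 8.22 with PD-98059 and at 8.84, 8.65 and 8.16 with U0126, below every 2D HGF and 2D control array (-1.19 ± 0.15 and -0.93 ± 0.16, adjusted p = 1.46e-07 and 2.13e-05). USP18 was at 7.40, 7.09, 7.68 and 7.24 with PD-98059 and at 7.66, 7.67 and 7.60 with U0126, also below every 2D HGF and 2D control array (-0.81 ± 0.13 and -0.52 ± 0.14). IRF9 had differences of -0.39 ± 0.11 and -0.36 ± 0.12 (adjusted p = 0.00442 and 0.0141). Its U0126 call was lost without replicate 1 of 2D HGF with U0126 (-0.30, adjusted p = 0.0791) or replicate 4 of 2D HGF (-0.30, adjusted p = 0.052).

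The inhibitor effects in 3D and 2D were set against each other in a test of their difference. For PD-98059 the 3D effect minus the 2D effect was positive for 18 of the 30 genes and negative for 1 (IFIT5), against 22.0% and 12.3% of all tested probe sets. The IFIT5 call was lost with no filter (adjusted p = 0.06) and without replicate 4 of 3D HGF, replicate 1 of 2D HGF or replicate 2 or 3 of 3D HGF with PD-98059. For U0126 it was positive for 20 and the other 10 did not pass, against 19.9% positive and 16.6% negative over all tested probe sets. Both differences were positive for ISG15 (2.16 ± 0.22 and 1.92 ± 0.22), USP18 (1.82 ± 0.19 and 1.40 ± 0.20) and IRF9 (0.97 ± 0.16 and 0.88 ± 0.17), genes that rose with the inhibitors in 3D and fell with them in 2D. They were also positive for PARP9 (2.42 ± 0.31 and 3.54 ± 0.32) and IFNGR2 (2.02 ± 0.17 and 1.91 ± 0.18). TAP2 differed by 0.13 ± 0.15 and -0.01 ± 0.15 between the cultures (adjusted p = 0.537 and 0.975), and the first passed with the RNA-quality covariate (0.34).

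**Figure D5:**
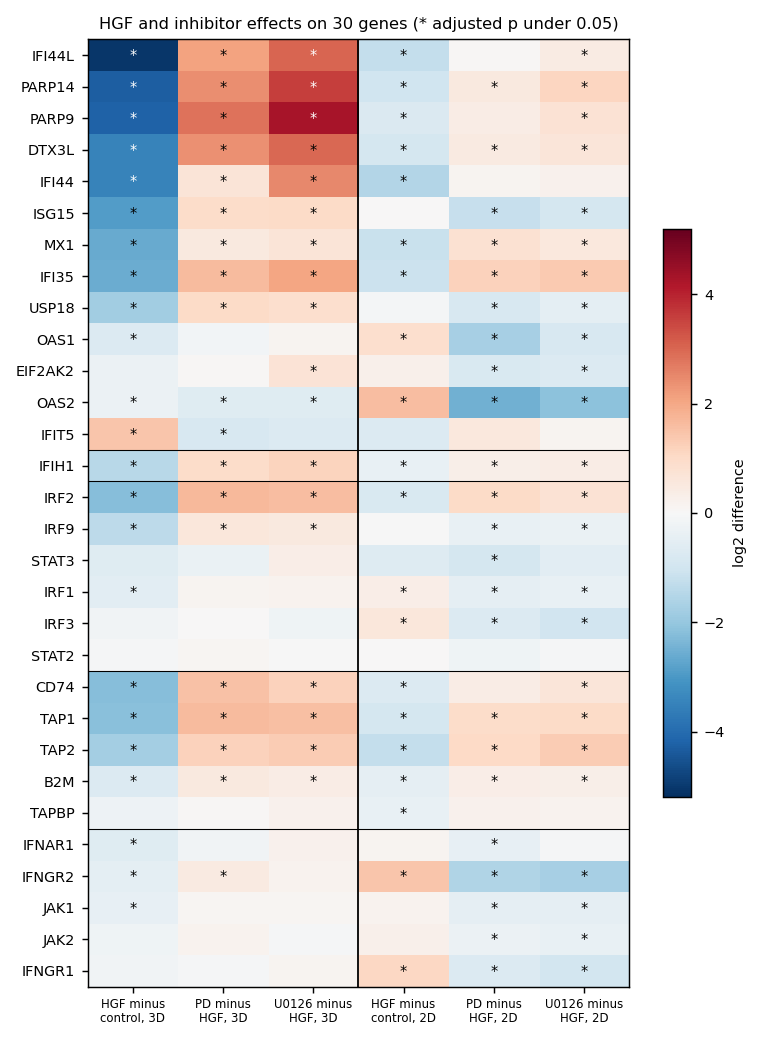
Log2 differences of 30 genes (rows, grouped by role) for HGF minus control and for each inhibitor with HGF minus HGF alone, in 3D (left 3 columns) and 2D (right 3 columns), with an asterisk where adjusted p is below 0.05. In 3D the inhibitor columns are mostly red beside the blue HGF column, and in 2D ISG15, USP18, OAS1, OAS2 and IFNGR2 are blue with both inhibitors.

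U0126 and PD-98059 were compared directly within each culture, with p-values adjusted over all tested probe sets in each of 2 comparisons. Their doses are not given, so a difference compares these treatments and not the compounds at a matched dose. In 3D, U0126 gave a higher level than PD-98059 for 5 of the 30 genes and the other 25 did not pass, while 2.99% of all tested probe sets were higher and 8.82% lower. With array weights 12 genes passed, 9 higher and 3 lower with U0126 (IRF3 by -0.25, IFNGR2 by -0.33 and JAK2 by -0.33). The 5 genes were IFI44 (1.85 ± 0.17, adjusted p = 4.9e-08), PARP9 (1.47 ± 0.24, adjusted p = 0.000217), PARP14 (1.20 ± 0.22, adjusted p = 0.000705), IFI44L (0.91 ± 0.14, adjusted p = 0.000136) and DTX3L (0.63 ± 0.17, adjusted p = 0.0179). The DTX3L call was lost in the compared groups alone (adjusted p = 0.0604) and without replicate 2 (adjusted p = 0.0819) or 3 (adjusted p = 0.0992) of 3D HGF with PD-98059 or replicate 1 of 3D HGF with U0126 (adjusted p = 0.0909). For the other 25 genes the differences lay between -0.30 and 0.72, and the 95% intervals of 23 of them stayed within a 2-fold difference.

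In 2D, U0126 gave a higher level for 1 gene, OAS1 (0.88 ± 0.10, adjusted p = 6.05e-06), while 0.845% of all tested probe sets were higher and 0.778% lower. OAS1 did not pass in the compared groups alone (adjusted p = 0.0578). The differences of the other 29 genes lay between -0.41 and 0.60, and the 95% intervals of 26 of them stayed within a 2-fold difference.

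Genes of the same pathways outside the 46 were taken from a list of 89 names, of which 59 had a probe set and 37 were testable. HGF in 3D lowered 28 of these 37 and raised 3, while 32.6% of all tested probe sets fell and 29.4% rose. In 2D it lowered 13 of the 37 and raised 5, while 29.2% of all tested probe sets fell and 26.3% rose, and the median difference was -0.05, against -0.03 over all tested probe sets. The 2D count of genes that fell was thus close to that share. Among its 19 testable genes of antigen processing and presentation 15 fell and 2 rose in 3D, and 12 fell and 1 rose in 2D, beside the same shares. CTSS, a protease that trims the invariant chain, averaged 10.89 in 3D HGF and 14.19 in 3D control (-3.30 ± 0.10). The immunoproteasome subunit PSMB9, which lies beside TAP1 in the gene order, fell in both cultures (-2.71 ± 0.11 in 3D and -1.82 ± 0.11 in 2D), while PSMB8 fell to a dim level in 3D (-2.85 ± 0.25) and differed by -0.13 ± 0.25 in 2D. Of the dog MHC genes, the class II peptide loaders DLA-DMA (-3.90 ± 0.14 in 3D and -0.63 ± 0.14 in 2D) and DLA-DMB (-3.17 ± 0.15 and -1.20 ± 0.15) fell, as did the class I gene DLA88 (-1.91 ± 0.14 and -0.42 ± 0.14). MHC genes are close paralogs, and their probe sets may share signal.

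The 2 antigen processing genes that rose in 3D were the endoplasmic reticulum chaperones CALR (0.46 ± 0.09) and PDIA3 (0.79 ± 0.15), which act on many glycoproteins besides MHC class I. DLA-DOA differed by 0.05 ± 0.08 in 3D (adjusted p = 0.643). With PD-98059 in 3D, 14 of the 19 genes rose and 2 fell, while 26.6% of all tested probe sets rose and 15.4% fell. With U0126 in 3D 15 rose and 2 fell, while 25.4% of all tested probe sets rose and 23.8% fell. In 2D 11 rose and 1 fell with PD-98059, beside 27.6% and 24.9% of all tested probe sets, and with U0126 11 rose and the other 8 did not pass, beside 25.8% rising.

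The interferon genes on the list that had a probe set were dim on all 29 arrays. The highest values were 2.46 for IFNB1, 2.50 for IFNG, 2.75 for IFNK and 2.19 for IFNL1, and a dim probe set does not show that a gene is silent. Of the 46 genes, MX2, IFIT2, DHX58, OAS3, IRF7, RSAD2, HERC5, ADAR, TRIM25 and TYK2 were on the array without reaching the testable level, with highest values between 2.03 and 4.14. OASL, IFIT1, IFNAR2, IFIT3 and DDX58 had no probe set annotated to them alone.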

How the data were processed

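Values are log2 levels per probe set from the authors' deposited table of 29 arrays, with column medians between 3.06 and 3.26. The submitters' processing notes name GCRMA, Partek 6.6, Expression Console 1.1 and MAS5, and do not say what each did. The log base was read from the values, and background correction and centring stay unknown. GEO's platform annotation named the probe sets. limma 3.58.1 (R 4.3.3) fitted 8 group means over all 29 arrays with an intensity trend, and p-values were adjusted by Benjamini-Hochberg over 16571 probe sets at log2 5 or more on at least 3 arrays. The script was tested on simulated data.

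Values on each array are given for ISG20 and for genes with adjusted p below 0.05 and a log2 difference of at least 2 in a comparison of HGF, culture or an inhibitor. A few others, shown for OAS1, IFIT5 and IFNGR2, were chosen after their values were seen. The members and lists were chosen with earlier results of these data known. The number of arrays limits the precision.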

Additional observations from a re-analysis of the deposited data

Results flagged for a closer look

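The effect of HGF differed between 3D and 2D for the 14 genes given array by array. These genes were picked for differences of at least 2 log2 units on the same arrays, so their values describe the chosen genes and are no independent test. ISG20 was testable through the 4 arrays of 2D HGF alone and so had to differ. The difference (3D minus 2D, log2) was -7.24 for ISG20, -3.82 for IFI44L, -3.48 for PARP9, -3.28 for PARP14, -2.92 for ISG15 and -2.58 for DTX3L. It was -1.97 for IFI44, -1.88 for OAS2, -1.70 for USP18, -1.49 for CD74, -1.47 for MX1, -1.46 for IFI35, -1.46 for IRF2 and -1.27 for TAP1. For ISG20 and OAS2 it goes with a rise in 2D, and for the other genes with a fall from 3D control to 3D HGF beyond their difference in 2D. TAP1 had similar levels in 3D HGF and 2D HGF (0.05, limma adjusted p = 0.681). It was higher in 3D control than in 2D control (1.32), as was ISG15 (1.73).

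In 5 of 70 groups of 4 arrays, 1 array stood apart from the other 3 by Dixon's criterion, which chance meets in about 1 of 20 groups. These were ISG15 on the lowest 3D HGF array (7.84), IRF2 on the lowest 3D HGF array (6.45), IRF2 on the lowest 3D control array (9.08), PARP9 on the highest 3D control array (8.04) and IFI44 on the highest 2D control array (9.01). Without any 1 of these arrays the HGF calls of these genes in that culture were kept.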

How the results depend on the processing

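Of the 30 genes, the calls held under every alternative other than a 2-fold minimum for 21 of 23 in the HGF comparison in 3D, 18 of 20 in 2D and 22 of 25 in the difference between the HGF effects. They held for fewer in the culture comparisons (16 of 25 with HGF and 13 of 19 in control), for PD-98059 and U0126 in 3D (15 of 19 and 15 of 18) and 2D (17 of 23 and 16 of 24), between the inhibitors (4 of 5 in 3D and 0 of 1 in 2D) and for the culture differences of PD-98059 and U0126 (13 of 19 and 16 of 20). A 2-fold minimum moved the number called to 14 in 3D against 2D with HGF and 5 in control, 9 for HGF in 2D, 10 and 11 for PD-98059 and U0126 in 3D, 6 and 5 for them in 2D, 3 and 0 for U0126 against PD-98059 in 3D and 2D, and 11 and 11 for the culture differences of PD-98059 and U0126. With array weights 12 genes differed between the inhibitors in 3D (9 higher and 3 lower with U0126), and in limma on the compared groups alone 0 did in 2D (5 at an unadjusted p under 0.05). Leaving out 1 array gave 22 to 25 for HGF in 3D, 18 to 22 in 2D, 24 to 26 for culture with HGF and 16 to 19 in control, 17 to 19 for PD-98059 and 16 to 18 for U0126 in 3D, 20 to 23 and 19 to 24 in 2D, 4 to 6 between inhibitors in 3D and 1 to 1 in 2D, and 24 to 25, 17 to 20 and 19 to 21 for the culture differences of HGF, PD-98059 and U0126. Values changed sign for IFNGR1 in 3D against 2D with HGF (0.18 with the RNA-quality covariate) and, as means of probe sets, for JAK1 with HGF in 3D (0.13), JAK1 in the HGF effect difference (0.33) and IFNAR1 in 3D against 2D with HGF (-0.48), where the cause was not tested. Median centring moved the median of all tested probe sets by 0.10 for HGF and by -0.13 for PD-98059 in 3D. With the replicate number as a block, 24 genes were called for HGF in 3D and 21 in 2D, 26 and 19 for culture with and without HGF, 17 and 17 for PD-98059 and U0126 in 3D, 23 and 24 in 2D, 5 and 1 between inhibitors, and 25, 19 and 20 for the culture differences. Correlations between arrays of the same number, taken on deviations from group means, ran from -0.296 to 0.409. With groups of 3 or 4 arrays they cannot settle whether the numbers pair the arrays. Dim levels limit the differences of IFI44L, IFI44, PARP9 and PARP14 in 3D HGF.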

Other observations

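The enzymes that attach ISG15 to proteins were on the list of other pathway genes. UBA7, the activating enzyme, fell with HGF in 3D (-2.65 ± 0.15, limma adjusted p = 4.01e-14) and differed by 0.01 ± 0.15 in 2D (adjusted p = 0.981). UBE2L6, the conjugating enzyme, fell in 3D (-1.71 ± 0.10) and less in 2D (-0.39 ± 0.10). HERC6, a ligase of the family that joins ISG15 to its targets in mouse, differed by -0.17 ± 0.12 in 3D and rose in 2D (1.25 ± 0.12). It fell with both inhibitors in 2D, by 1.84 with PD-98059 and by 2.04 with U0126 on the log2 scale.

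CMPK2, a mitochondrial nucleotide kinase, fell with HGF in 3D (-1.11 ± 0.20) and rose in 2D (1.65 ± 0.20). IL10RB, a receptor chain of lambda interferons, fell in 3D (-0.62 ± 0.13) and rose in 2D (0.77 ± 0.13). The neighbouring guanylate-binding protein genes differed in direction in 3D. GBP1 fell with HGF to a dim level (-4.06 ± 0.14) and rose with PD-98059 (2.60 ± 0.16) and U0126 (3.38 ± 0.16), whereas GBP5 rose with HGF (0.77 ± 0.14) and fell with PD-98059 (-2.25 ± 0.15) and U0126 (-2.21 ± 0.15), to a dim level with each.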
